A study of Mus musculus with 162 samples.

Results

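Collagens are secreted proteins built from 3 polypeptide chains wound into a triple helix, and each chain is the product of its own gene. The chains were taken by symbol, every row named Col, a number, a and a digit, which gives 44 of the 53686 rows of the count table, each with its own gene identifier. The study fasted male C57BL/6J mice of 8 to 9 weeks for 0, 2, 8, 12, 18 or 22 h and sequenced mRNA from 9 organs of each animal. From the head came the olfactory bulb (OB), cerebellum (CBL), brainstem (BST) and the remaining brain (BRN), from the trunk the liver (LIV) and stomach (STM), and as fat depots the brown one between the shoulder blades (iBAT) and the perigonadal (pgWAT) and posterior subcutaneous (psWAT) white ones. Each time has 3 mice, fed ad libitum at 0 h and with water throughout, and all were killed at the same clock time, so food was taken away at different hours of the day. The libraries are of whole organs, and the 9 organs come from the same 18 mice, so organs are not independent samples. In such bulk libraries fewer collagen-making cells and less collagen mRNA per cell cannot be told apart, and this holds for every result below.

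The classes of collagen differ in the structures they build. Types I, III and V make the banded fibrils of connective tissue, type IV makes the network of basement membranes, and type VI makes beaded filaments around cells. The FACITs sit on fibrils as linkers, the multiplexins XV and XVIII join basement membranes to the matrix below, and transmembrane collagens stay in the cell membrane.

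All libraries but 5 were used, with 3045845 to 27801717 counts each (median 8735554). The 5 were left out by the study too: BRN 8 h replicate 3, BRN 18 h replicate 1, STM 12 h replicate 3, iBAT 22 h replicate 1 and psWAT 22 h replicate 2. Another 4 were doubted from earlier results of these data and kept, with counts given without them where these change: BRN 2 h replicate 3, BRN 18 h replicate 2, pgWAT 22 h replicate 2 and psWAT 12 h replicate 3. Of these only the last was closer here to another organ, CBL, than to its own, and psWAT 8 h replicate 1 was closer to pgWAT. Some libraries outside these 4 also stood apart. Against the mean of its own organ, iBAT 22 h replicate 2 had a correlation over 22113 genes of 0.928 and pgWAT 18 h replicate 3 of 0.927, much like the doubted BRN 18 h replicate 2 with 0.930. Fed STM replicate 3 had 0.963, the lowest of the STM libraries used. In addition, 3 pgWAT libraries carried transcripts of the male reproductive tract. The summed level of 6 epididymal markers (Crisp1, Defb20, Lcn5, Spink2, Adam7 and Rnase9) was 17824 CPM in 22 h replicate 2, 12267 CPM in 18 h replicate 3 and 2449 CPM in 2 h replicate 2. In 22 h replicate 3 it was 554 CPM, and in the 14 other pgWAT libraries it lay between 0.649 and 34.3 CPM. Some mean marker sums were highest in the organ of their label. Gastric gland genes summed to 207405 CPM in STM and hepatocyte genes to 149665 CPM in LIV. Brown adipocyte genes summed to 11266 CPM in iBAT and cerebellar neuron genes to 5178 CPM in CBL. Other lists did not follow the labels: olfactory ensheathing cell genes summed to 1889 CPM in OB and 8130 CPM in BST. Genes of brain meningeal fibroblasts were highest in pgWAT, at 2451 CPM. Lymphocyte genes summed to 1362.5 CPM in psWAT and to at most 11.7 CPM elsewhere (24.2 CPM in the highest library), and skeletal muscle genes to 4365 CPM in psWAT, 2593 CPM in iBAT and 2099.9 CPM in STM.

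A chain was tested in an organ when at least 3 of its libraries reached the CPM equal to 10 counts at the median library size. By this rule 39 of 44 chains were tested in OB, 40 in BRN, 37 in CBL, 40 in BST, 38 in STM, 23 in LIV, 29 in iBAT, 34 in pgWAT and 36 in psWAT. In all 9 organs 21 chains passed, and 23 passed in 1 to 8. Col10a1, the short chain of growth-plate cartilage, passed only in iBAT. Below the rule in iBAT were Col2a1, Col9a1, Col9a2, Col9a3, Col11a1, Col19a1, Col22a1, Col24a1, Col25a1, Col26a1, Col4a6, Col6a4, Col6a5, Col8a2 and Col17a1. In STM these were Col2a1, Col6a6, Col9a1, Col10a1, Col22a1 and Col26a1. In LIV 21 chains were below the rule, among them Col4a3, Col4a4 and Col4a6. Col10a1 and Col19a1 had no count in 18 LIV libraries, where 3 counts would be 0.0185 CPM. Below the rule were Col10a1, Col17a1, Col4a3, Col6a5 and Col6a6 in OB, the same without Col6a5 in BRN, and the same without Col4a3 in BST. In CBL these were Col10a1, Col14a1, Col22a1, Col28a1, Col6a4, Col6a5 and Col6a6, and 10 chains of pgWAT and 8 of psWAT were likewise below it.

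Collagen mRNA made up a small share of all counts, and white fat, stomach and liver held the most. Levels across organs are CPM scaled by TMM over all libraries used, and chains are compared with each other only per kb of merged exon length. As a sum, the 44 chains were 0.442 ± 0.136% of counts in pgWAT (mean ± SD, 18 libraries; 0.451 ± 0.123% in the 15 without tract transcripts). STM followed with 0.228 ± 0.0702% (17 libraries), psWAT with 0.198 ± 0.120% (17), LIV with 0.150 ± 0.0312% (18) and iBAT with 0.117 ± 0.0374% (17). In the nervous system the share was 0.0649 ± 0.0082% in OB (18), 0.0472 ± 0.0111% in BRN (16), 0.0402 ± 0.0053% in BST (18) and 0.0392 ± 0.0060% in CBL (18). Taking each chain's highest mean, 17 chains peaked in pgWAT, 11 in STM, 4 in OB, 3 in BST, 3 in LIV, 2 in BRN, 2 in CBL, 2 in iBAT and 0 in psWAT. For 5 of these the lowest library of the highest organ exceeded every library of the next: Col18a1 and Col27a1 in LIV, Col9a2 and Col24a1 in OB and Col9a3 in CBL. Neither the peak organ nor this lack of overlap was counted over all genes, so neither count can be read as particular to collagens.

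**Figure D1:**
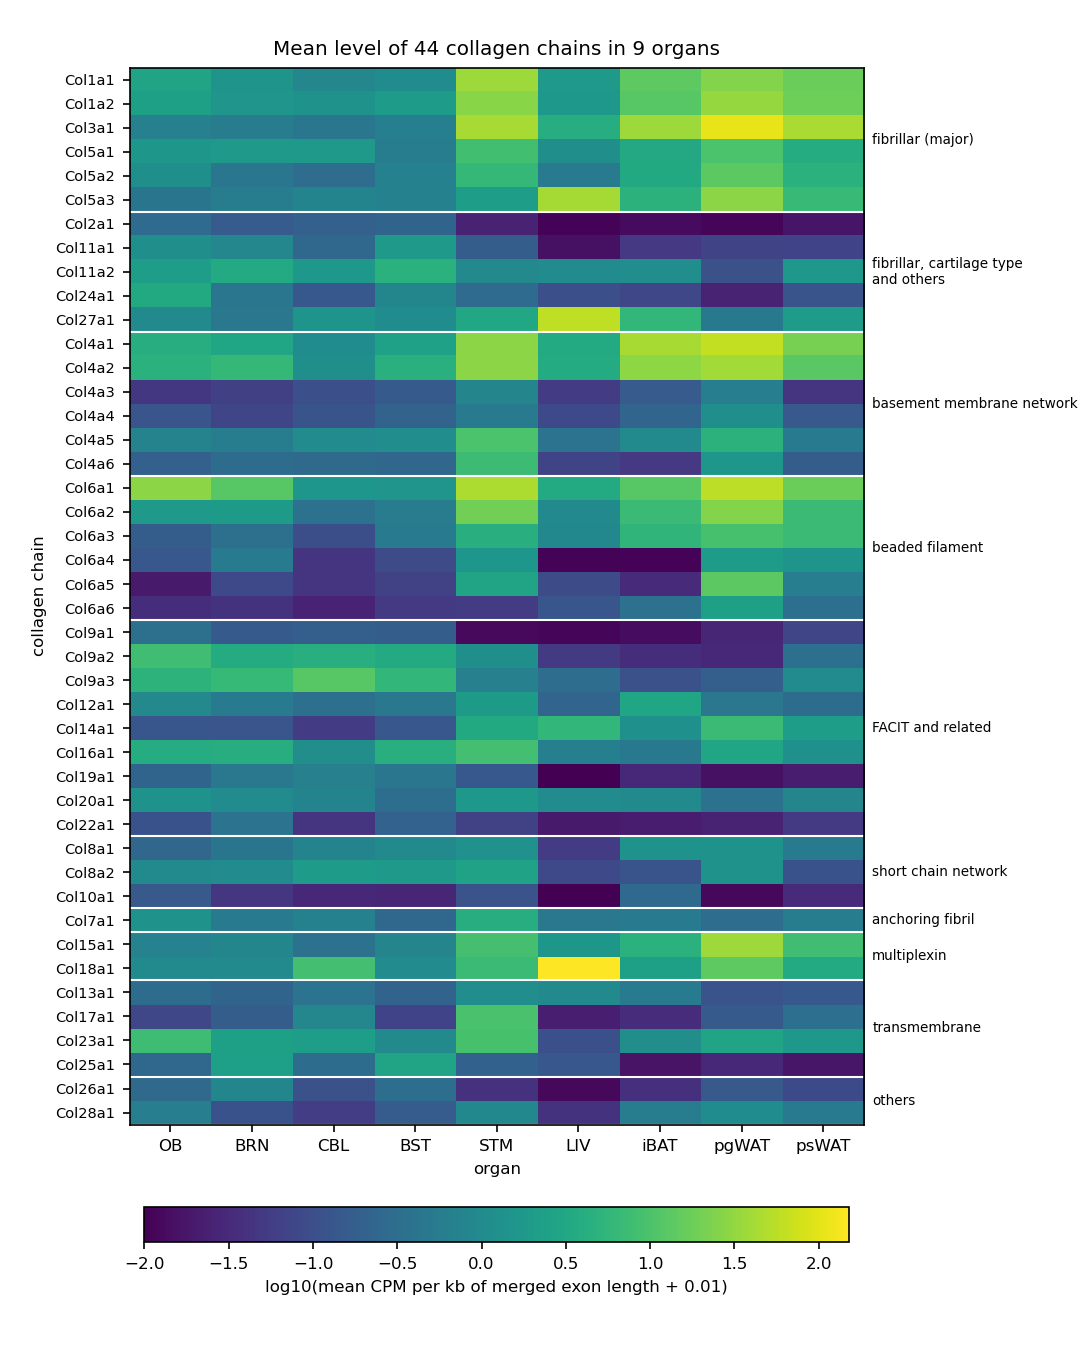
Mean level of the 44 collagen chains (rows, by class) in 9 organs (columns). Color is log10 of mean CPM per kb of merged exon length plus 0.01, with TMM over all libraries used.

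The fibril-forming chains of connective tissue held the largest share in the fat depots and the stomach. Types I, III and V made up 50.4% of the summed CPM per kb in psWAT, 42.9% in pgWAT, 37.6% in iBAT and 36.2% in STM, against 9.84% in OB. Col3a1, the only chain of type III, was the highest chain of pgWAT (108.9 ± 33.4 CPM per kb) and psWAT (44.9 ± 40.3), and second in STM (43.2 ± 8.32) and iBAT (36.4 ± 12.0). Col1a1 and Col1a2, which join 2 to 1 in type I, reached 241 ± 73.2 CPM in STM for Col1a1 and 409 ± 140.3 CPM in pgWAT for Col1a2. Col5a1 and Col5a2, the type V chains that start fibrils, peaked in pgWAT at 84.4 ± 30.9 and 126.2 ± 35.99 CPM. The minor type V chain Col5a3 was highest in LIV (281 ± 88.8 CPM), ahead of pgWAT (192.2 ± 75.6 CPM).

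Cartilage-type fibrillar chains had a different distribution. Col27a1, which makes thin fibrils, measured 285, 638 and 1644 CPM (lowest, median and highest of 18 libraries) in LIV, against a mean of 76.3 ± 33.7 CPM in iBAT, the next organ. Col11a1 (23.4 ± 5.94 CPM) and Col11a2 (32.7 ± 4.94 CPM), nucleators of type II fibrils, peaked in BST. Col24a1, a fibrillar chain of developing bone and cornea, was highest in OB at 26.3 ± 6.94 CPM, and BST followed with 6.22 ± 1.78 CPM. Col2a1, the main chain of cartilage, stayed at 2.60 ± 0.727 CPM even in its highest organ, OB.

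Basement membrane chains were prominent in brown fat. The 6 type IV chains held 37.2% of the summed CPM per kb in iBAT, 22.2% in STM, 22.04% in pgWAT, 18.5% in psWAT and 2.71% in LIV. Col4a1, which with Col4a2 forms the network of nearly every basement membrane, was the highest chain of iBAT at 42.2 ± 13.3 CPM per kb and the second of pgWAT at 63.7 ± 19.1. In CPM both peaked in pgWAT, Col4a1 at 475 ± 142.6 and Col4a2 at 267 ± 99.7. Col4a5 and Col4a6, partners in the basement membranes of smooth muscle and some epithelia, peaked in STM at 65.7 ± 27.3 and 58.4 ± 31.7 CPM. Col4a3, partner of Col4a4 and Col4a5 in filtering epithelia, reached 7.86 ± 4.13 CPM in STM, and Col4a4 12.6 ± 7.71 CPM in pgWAT.

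Type VI chains held the largest share in the olfactory bulb. Col6a1, the shared chain of beaded filaments, was the highest chain of OB (28.6 ± 4.00 CPM per kb), BRN (12.3 ± 3.53) and STM (46.04 ± 12.2). Beaded filament chains held 33.7% of the summed CPM per kb in OB and 23.999% in BRN, but 4.07% in CBL and 5.44% in BST. In CPM, Col6a1 (254 ± 62.99), Col6a2 (209 ± 70.0) and Col6a3 (108 ± 29.8) all peaked in pgWAT. Col6a5, which can stand in for Col6a3, was highest in pgWAT at 123.8 ± 85.4 CPM, and so was Col6a6 at 22.1 ± 12.4 CPM. Col6a4 also had its highest mean there, 17.7 ± 61.9 CPM, but this came from 262 CPM in 18 h replicate 3 and from 22 h replicate 2, which held tract transcripts. Without the 3 tract libraries its pgWAT mean was 0.671 ± 0.532 CPM and STM was highest at 13.2 ± 3.65 CPM, so that 16 chains peaked in pgWAT and 12 in STM.

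FACITs held the largest share in the cerebellum, brainstem and remaining brain. Their share of the summed CPM per kb was 39.01% for CBL, then 30.8% for BST, 26.6% for BRN and 22.1% for OB, against 2.16% for pgWAT. Col9a3, a type IX chain, was the highest chain of CBL (12.6 ± 2.73 CPM per kb) and BST (5.96 ± 2.60). Its partner Col9a2 was second in OB at 8.03 ± 1.36 CPM per kb, while Col9a1, the chain that completes type IX, reached only 1.72 ± 0.403 CPM there. Among the other linkers, Col12a1, found on the fibrils of tendon and muscle, peaked in iBAT (44.03 ± 18.5 CPM), the related Col14a1 in pgWAT (49.9 ± 13.2 CPM) and Col16a1 in STM (58.6 ± 26.9 CPM). Col19a1, made by some neurons, peaked in CBL at 4.47 ± 1.25 CPM, Col20a1, a FACIT of little known role, in STM at 8.74 ± 3.12 CPM and Col22a1, of tissue junctions, in BRN at 3.48 ± 2.71 CPM.

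Type XVIII collagen marked the liver. Col18a1, source of the fragment endostatin, was by far the highest chain of LIV, at 151.6 ± 12.2 CPM per kb and 1064 ± 85.9 CPM, with every library between 869.9 and 1247 CPM. The next organ was pgWAT at 96.3 ± 20.2 CPM. In CBL Col18a1 was second among the chains at 8.46 ± 1.52 CPM per kb. Col15a1, which stabilizes muscle and capillary basement membranes, peaked in pgWAT at 230.6 ± 94.9 CPM, against 57.2 ± 10.6 CPM in STM.

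The remaining chains were lower and spread over stomach, brain and fat. Among transmembrane collagens Col17a1, a hemidesmosome protein of stratified epithelium, reached 57.8 ± 39.6 CPM in STM and at most 5.05 ± 1.31 CPM elsewhere, in CBL. Col23a1, which can be shed from the cell surface, peaked in STM (52.5 ± 38.2 CPM) and held rank 3 in OB at 7.62 ± 0.827 CPM per kb. Col13a1, of neuromuscular junctions, peaked in STM at 5.09 ± 2.63 CPM, and the neuronal Col25a1 in BST at 35.9 ± 3.54 CPM. Col7a1, the anchoring fibril under stratified epithelium, was highest in STM at 42.03 ± 18.8 CPM. Col8a1 of vessel walls peaked in pgWAT (10.6 ± 4.52 CPM), its partner Col8a2 in STM (11.4 ± 5.32 CPM) and Col10a1 in iBAT (0.818 ± 0.848 CPM). Col26a1, a short chain first found in gonads, was highest in BRN at 6.69 ± 2.48 CPM and Col28a1, a chain of peripheral nerve, in pgWAT at 5.30 ± 3.28 CPM.

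The ratio of chains that assemble together varied between organs. Per kb, Col1a1 stood at 1.34 ± 0.136 times Col1a2 in STM, 0.785 ± 0.109 in pgWAT and 0.544 ± 0.0808 in BST. Merged exon length is 12426 bases for Col1a2 and 6563 for Col1a1. Where the merge is longer than the transcripts in use, the per-kb level is too low, so this ratio and the per-kb rank of Col1a2 are uncertain. The same holds for per-kb ranks of other chains against Col1a2 and for the per-kb class shares. Col4a1 stood at 1.64 ± 0.223 times Col4a2 in pgWAT, 1.01 ± 0.132 in STM and 0.477 ± 0.131 in BRN. For Col6a1 over Col6a2 the ratio was 16.3 ± 1.93 in OB and 1.73 ± 0.183 in iBAT, and for Col6a1 over Col6a3 it was 183.1 ± 43.3 in OB and 2.45 ± 0.522 in iBAT. Exons of 10 chains (Col4a1, Col4a2, Col4a3, Col5a1, Col6a4, Col6a6, Col9a3, Col10a1, Col15a1 and Col22a1) overlap genes on the opposite strand, and those of Col3a1, Col7a1 and Col20a1 genes on the same strand. The strand setting of the counting is not given in the sources used here, so counts of the first 10 are uncertain. Counts of Col3a1, Col7a1 and Col20a1 are uncertain too, since no strand setting separates genes on the same strand.

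In the tests between organs a chain was called at adjusted p under 0.05 (edgeR, Benjamini-Hochberg) and absolute log2 fold change over 1, with 44 chains and 22113 genes tested. Most chains were higher in the stomach, with its muscle wall and stratified forestomach, than in the other organs on average. Against the mean of the 8 others 31 chains were higher (20.5% of all genes were) and 4 lower (15.3%): Col9a1, Col9a3, Col26a1 and Col6a6. Of the lower ones Col9a1, Col26a1 and Col6a6 were below the count rule in STM. All 6 basement membrane chains, 5 of 6 major fibrillar and 5 of 6 beaded filament chains were among the higher. The median log2 fold change was 2.00, against −0.12 over all genes. Largest were Col17a1 (6.56, SE 0.27), Col4a6 (5.16, SE 0.22), Col6a5 (4.57, SE 0.23), Col6a4 (4.22, SE 0.54), Col3a1 (3.45, SE 0.15) and Col4a5 (3.39, SE 0.16). Col17a1, Col4a6, Col6a5 and Col6a4 were below the count rule in LIV and iBAT, and all but Col4a6 also in part of the nervous system. Their folds are therefore not exact. Col10a1, below the rule in STM itself, was among the 31 higher. The count and the median thus rest in part on chains near no count in some organs.

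The liver was the reverse, and the fewest chains passed the count rule there (23 of 44). Only 5 chains were higher in LIV than in the mean of the 8 others (21.3% of all genes) and 31 were lower (30.3%), with a median of −1.70 against −0.35. The 21 chains below that rule in LIV entered this test through other organs. Part of the 31 are such chains, whose place among the lower was set by this. The higher chains were Col18a1 (5.68, SE 0.12), Col27a1 (5.47, SE 0.14), Col5a3 (4.38, SE 0.17), Col14a1 and Col13a1. All 6 basement membrane chains were lower. The largest falls in fitted value belonged to chains at or near no count: LIV held 0 counts of Col19a1, 1 of Col6a4, 2 of Col26a1 and 6 of Col11a1 over 18 libraries.

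Fat depots differed in their collagens as well. Subcutaneous psWAT had 22 chains lower than perigonadal pgWAT (19.7% of all genes) and 11 higher (24.4%), with a median of −1.02 against 0.04. All 6 basement membrane chains were lower. The largest differences were in Col6a5 (−4.38, SE 0.27), Col4a3 (−4.19, SE 0.42), Col11a2 (4.00, SE 0.23), Col8a2 (−3.69, SE 0.38), Col9a2 (3.65, SE 0.55) and Col4a6 (−3.58, SE 0.33). Col4a3 and Col8a2 were below the count rule in psWAT and Col9a2 in pgWAT, so these folds are not exact. Without the libraries holding tract transcripts Col6a4 averaged 0.671 CPM in pgWAT. In psWAT without its doubted library Col6a4 averaged 12.7 CPM. In iBAT 18 chains were lower than the mean of both white depots (29.3% of all genes) and 6 higher (14.2%), with a median of −0.87 against −0.30. Among these were Col6a5 (−6.74, SE 0.50), Col4a6 (−3.52, SE 0.43), Col17a1 (−3.02, SE 0.61) and Col12a1 (2.99, SE 0.16). Col6a5, Col4a6 and Col17a1 were below the count rule in iBAT and entered this test through other organs. Their folds are therefore not exact. Col6a4 had 2 counts in 17 iBAT libraries against 1984 in 17 psWAT libraries, and Col10a1 averaged 0.818 CPM in iBAT against 1 count in pgWAT and 9 in psWAT. Composition differed too: adipocyte markers summed on average to 10117 CPM in psWAT, 40524 CPM in pgWAT and 24791 CPM in iBAT. Lymphocyte markers summed to 1362.5 CPM in psWAT and 11.7 CPM in pgWAT. The part of composition in these differences was not tested.

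Within the nervous system the olfactory bulb stood higher and the cerebellum lower. OB had 14 chains higher than the mean of BRN, CBL and BST (9.58% of all genes) and 7 lower (9.17%), with a median of 0.24 against 0.03. Its largest differences were in Col24a1 (3.26, SE 0.22), Col6a1 (3.22, SE 0.11), Col28a1 (2.69, SE 0.25), Col10a1 (2.49, SE 0.47), Col25a1 (−2.32, SE 0.19) and Col6a5 (−2.26, SE 0.56). Col10a1 was below the count rule in every organ of the nervous system. Col6a5 was below it in OB, CBL and BST and Col28a1 in CBL, so these folds are not exact. CBL had 3 chains higher (6.8%) and 17 lower (12.4%) than the mean of the 3 others, with a median of −0.52 against −0.09. The 3 higher were Col17a1 (3.31, SE 0.29), Col18a1 (3.11, SE 0.14) and Col9a3, and the largest falls were in Col24a1 (−2.97, SE 0.25), Col6a4 (−2.55, SE 0.51), Col22a1 (−2.49, SE 0.30) and Col6a1 (−2.39, SE 0.12). Col6a4 and Col22a1 were below the count rule in CBL, and Col17a1 in OB, BRN and BST, so these folds are not exact. BST had 6 higher (10.8%) and 7 lower (5.97%), with a median of 0.17 against 0.05. Its largest were Col6a1 (−2.46, SE 0.12), Col25a1 (2.35, SE 0.18), Col23a1 (−1.78, SE 0.18), Col17a1 (−1.74, SE 0.39), Col20a1 (−1.69, SE 0.16) and Col7a1 (−1.65, SE 0.28). The fold of Col17a1, below the count rule in BST, is not exact.

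The effect of fasting was tested within each organ as the mean of 18 h and 22 h (late fast) against 0 h (fed), on CPM scaled by TMM within the organ, and a chain was called at adjusted p under 0.05. The stomach wall joins a gland epithelium, a stratified forestomach and thick smooth muscle, each resting on its own basement membrane. In the stomach some collagen chains rose, and these came from 6 classes. Of 38 chains tested 9 rose (6.21% of all genes did, and 15.3% were called in either direction) and 0 fell. Fold changes were positive for 34 chains (89.5%) and for 49.8% of all genes. The median log2 fold change of the chains was 0.58, against 0.00 over all genes. DESeq2 called 15 chains, and 20 had unadjusted p under 0.05 (32.3% of all genes did), all higher.

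Col16a1, a fibril-associated chain of smooth muscle and skin, measured 29.05, 38.1 and 22.4 CPM in fed STM and 52.7, 78.2 and 103.8 CPM (lowest, median and highest of 6) in the late fast. It rose by 1.36 log2 units (SE 0.21, edgeR adjusted p 0.00294), with all 6 late libraries above every fed library. Col23a1, a transmembrane chain, was 22.2, 24.3 and 10.8 CPM fed and 29.9, 73.1 and 130.8 CPM late. Its rise was 1.96 (SE 0.34, adjusted p 0.00541), again in 6 of 6 libraries and without overlap. The fed value of replicate 3 was the lowest for each of the 9 chains except Col4a5. This library also had the lowest correlation with its organ mean among the STM libraries used (0.963).

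Basement membrane chains gave 3 of the 9 calls. Col4a6 was 22.1, 42.7 and 13.7 CPM fed and 36.5, 78.8 and 115.5 CPM late, a rise of 1.52 (SE 0.33, adjusted p 0.0136), with 6 of 6 late libraries above the fed mean and 1 below the highest fed library. Col4a5, its partner, was 28.2, 49.4 and 33.6 CPM fed and 33.9, 88.6 and 108.8 CPM late, up by 1.05 (SE 0.29, adjusted p 0.0302) in 5 of 6. Col4a2 was 143.2, 139.1 and 69.2 CPM fed and 114.7, 227 and 281 CPM late, up by 0.83 (SE 0.25, adjusted p 0.0397) in 5 of 6. Late values of these 3 overlap the fed values, through 18 h replicate 2 and 22 h replicate 1. Col4a1, the partner of Col4a2, was not called (0.50, SE 0.23, adjusted p 0.143, 5 of 6 higher).

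Fibrillar and filament chains made up the rest. Col27a1 was 21.5, 25.1 and 14.3 CPM fed and 26.7, 47.6 and 68.6 CPM late, up by 1.23 (SE 0.28, adjusted p 0.0143) in 6 of 6 without overlap. Col5a1 was 51.6, 53.4 and 33.8 CPM fed and 59.7, 73.1 and 80.7 CPM late, up by 0.64 (SE 0.16, adjusted p 0.0175) in 6 of 6 without overlap. The late range of Col6a1 also lay above its fed range: it was 150.5, 146.8 and 102.4 CPM fed and 154.3, 224 and 262 CPM late, up by 0.74 (SE 0.19, adjusted p 0.0192) in 6 of 6. Col5a3 was 9.73, 10.5 and 6.34 CPM fed and 9.51, 19.03 and 28.9 CPM late, up by 1.09 (SE 0.32, adjusted p 0.0343) in 6 of 6 against the fed mean, with overlap.

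Col1a1, Col1a2 and Col3a1 were not called in the stomach. Col1a1 was 184, 221 and 101.3 CPM fed and 151.2, 288 and 327 CPM late (0.60, SE 0.26, adjusted p 0.135, 4 of 6 higher). The estimate was 0.52 for Col1a2 (adjusted p 0.130, 4 of 6), 0.38 for Col6a2 (0.108, 6 of 6), and close to 0 for Col3a1 (0.03, adjusted p 0.948). Col15a1 (0.21), Col18a1 (0.10) and Col6a3 (0.14) were not called either. Leaving out fed replicate 3 left 2 chains, leaving out fed replicate 1 left 5, and leaving out 18 h replicate 2 gave 14. At 22 h alone 1 chain was called, at 18 h alone 8, and with 0 h and 2 h as control 14. By transcript length, the median of all genes was −0.22 in the shortest 25% and 0.12 in the longest 25%, where 28 of the 38 chains lie.

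**Figure D2:**
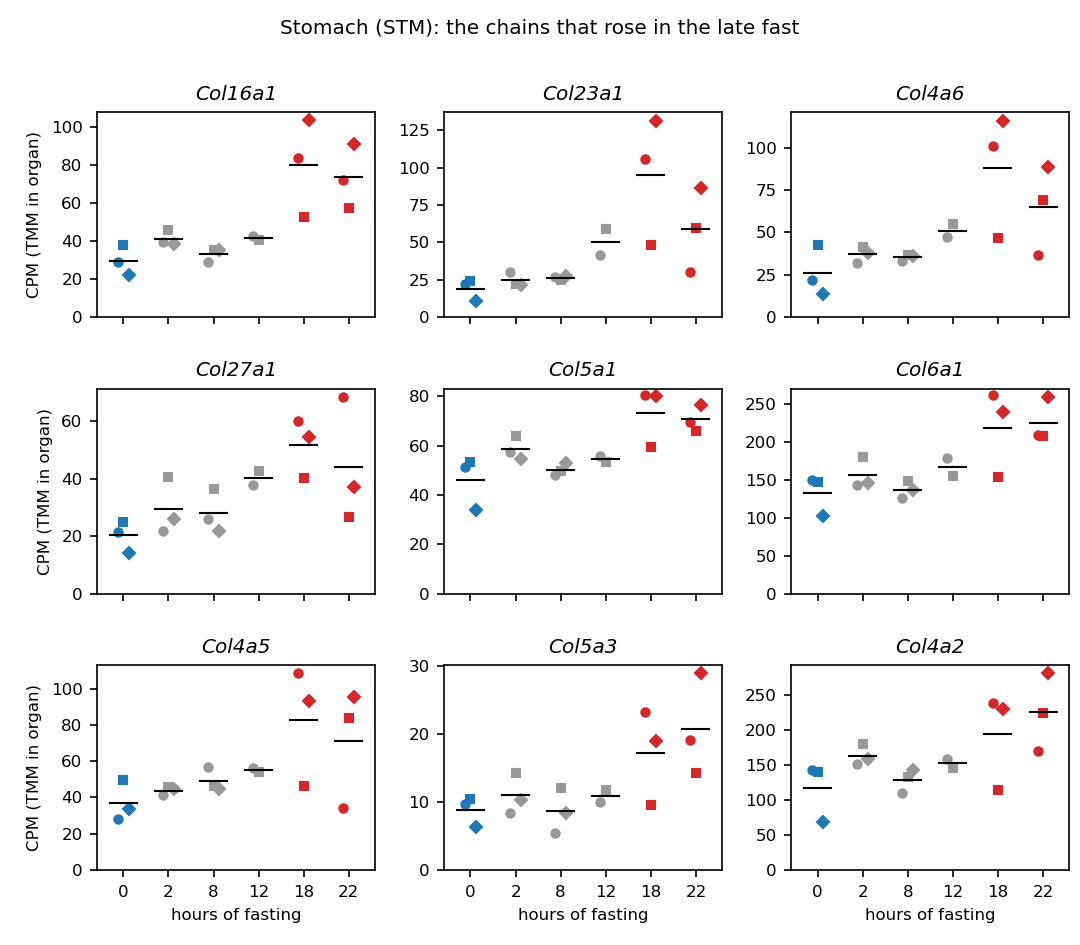
CPM (TMM within the organ) of chains that rose in the stomach by hours of fasting. Each symbol is 1 library (circle, square and diamond for replicates 1, 2 and 3; blue 0 h, grey 2 to 12 h, red 18 and 22 h) and the black line is the mean.

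Lane and fasting nearly coincide here: all fed STM libraries have lane 5 in the library names and all late ones lane 6. Only the 8 h libraries hold both, replicates 1 and 2 lane 5 and replicate 3 lane 6. With lane as covariate 0 chains were called, and the folds were 1.86 for Col23a1, 1.22 for Col16a1, 1.48 for Col4a6, 1.755 for Col27a1, 0.75 for Col6a1, 0.61 for Col4a2 and 0.52 for Col5a1 (adjusted p 0.725 to 0.818). Composition markers moved too, and their part in the result was not tested. Of 8 gastric gland markers 3 were lower, with sums of 279700, 185950 and 301240 CPM in fed libraries, 155520, 121650 and 158530 at 18 h and 171980, 214540 and 101600 at 22 h. Of 7 smooth muscle and pericyte markers 1 was higher, with sums of 9381, 9143 and 7147 CPM fed, 16437, 7460 and 16634 at 18 h and 11138, 14341 and 21286 at 22 h. Pgc led the gland list and most often Myh11 the muscle list, and none of the muscle markers was at 0. Of 8 fibroblast markers 2 were higher, with sums of 303, 329 and 401 CPM fed and 242 to 409 CPM late, and Dpt the most abundant.

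Further markers of the stomach moved, and their part in the result was not tested either. Of 5 tested neuron markers 3 were higher, with sums of 22.2, 31.7 and 41.3 CPM fed, 85.6, 51.5 and 78.5 at 18 h and 71.7, 58.6 and 62.6 at 22 h, led by Snap25 or Stmn2. Of 4 tested hepatic stellate cell markers 2 were higher, with sums of 134.7, 187.95 and 130.98 CPM fed, 288, 236.96 and 310.1 at 18 h and 238.1, 233.3 and 324 at 22 h, led by Ecm1, and Lhx2 was at 0 throughout. None of 7 skeletal muscle markers was called, but their sums were 2171, 1824 and 311 CPM fed, 2473, 4573 and 2475 at 18 h and 2909.6, 3539.7 and 4644 at 22 h, led by Acta1. Late sums lay above all fed sums in these 3 lists, and in 2 more. Olfactory ensheathing cell markers summed to 18.1 to 28.5 CPM fed and 29.8 to 52.6 CPM late, with 1 of 4 tested higher. Brown adipocyte markers summed to 11.7 to 18.5 CPM fed and 18.6 to 40.5 CPM late, with 0 of 4 called. Of 7 adipocyte markers 2 were lower, with sums of 198, 87.9 and 343 CPM fed and 96.9 to 135.2 CPM late, led by Fabp4, and Lep was at 0 in 5 late libraries.

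Some genes that process and hold collagen also moved in the stomach. Of 79 tested genes in 6 lists 16 were higher in STM, where 6.21% of all genes were, and 4 lower (15.3% of all genes were called in either direction). Plod2, a lysyl hydroxylase for telopeptides, was 16.8, 24.4 and 22.1 CPM fed and 30.8, 52.7 and 67.2 CPM late, up by 1.24 (adjusted p 0.00753) in 6 of 6. Bmp1, the procollagen C-proteinase, was 21.8, 27.9 and 17.1 CPM fed and 37.2, 53.3 and 71.5 CPM late, up by 1.26 (adjusted p 0.00562). Lama5, a laminin chain, was 42.6, 68.6 and 23.7 CPM fed and 89.2, 129 and 150 CPM late, up by 1.48 (adjusted p 0.00457). All late libraries of these 3 genes were above all fed libraries. P4hb, a prolyl hydroxylase subunit that also serves general folding, was 969, 850 and 1408 CPM fed and 440, 582 and 669 CPM late, down by 0.94 (adjusted p 0.00852) without overlap. Also higher were Fkbp10 (0.97), Adamts14 (2.20), Tnxb (0.77), Prelp (1.02), Timp3 (0.78), Ddr2 (0.93), Cspg4 (1.05), Itga1 (0.74), Agrn (0.64) and Nid1 (0.86), and Timp4 (−1.60) was lower. The collagen chaperone Serpinh1 (0.12, adjusted p 0.771) and the cross-linker Lox (−0.95, adjusted p 0.11) were not called, nor were P4ha1 (−0.16), Mmp2 (0.14) and Sparc (0.35).

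Brown fat is rich in capillaries, and each of its adipocytes is wrapped in a basement membrane. In this depot the called chains fell. The calls span 6 classes. In iBAT 8 of 29 chains fell (13% of all genes did, and 20.9% were called in either direction) and 0 rose, with 27 fold changes negative and a median of −0.80 against −0.07. Positive fold changes made up 6.90% of the chains and 46.3% of all genes. DESeq2 called 9, and 13 had unadjusted p under 0.05. The late group has 5 libraries, and in most chains the low values were those of the 2 libraries at 22 h, of which replicate 2 stands apart in profile.

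Col4a1 was 224, 334 and 206 CPM fed, 251, 175 and 223 CPM at 18 h and 97.8 and 89.2 CPM at 22 h. It fell by 0.84 (SE 0.23, edgeR adjusted p 0.0177), with 5 of 5 late libraries below the fed mean. Below every fed library were 18 h replicate 2 and both 22 h libraries. Col4a2 was 140.8, 237 and 136.9 CPM fed, 161.9, 103.6 and 144.4 CPM at 18 h and 29.3 and 65.3 CPM at 22 h, down by 1.08 (SE 0.28, adjusted p 0.0137) in 5 of 5. Col15a1 was 16.5, 20.8 and 24.2 CPM fed, 31.1, 19.8 and 16.7 CPM at 18 h and 3.50 and 5.79 CPM at 22 h, down by 0.96 (SE 0.27, adjusted p 0.0183) in 4 of 5. At 18 h alone its estimate was 0.14 (adjusted p 0.938), the opposite sign.

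Among fibrillar chains Col27a1 was 73.5, 119.4 and 56.6 CPM fed, 62.1, 49.5 and 55.4 CPM at 18 h and 7.33 and 20.3 CPM at 22 h, down by 1.55 (SE 0.31, adjusted p 0.0039) in 5 of 5. Col5a1 was 12.6, 22.7 and 32.7 CPM fed, 25.4, 13.7 and 15.8 CPM at 18 h and 3.50 and 4.90 CPM at 22 h, down by 1.34 (SE 0.41, adjusted p 0.0284) in 4 of 5. Its partner Col5a2 was 17.9, 26.6 and 39.3 CPM fed, 29.8, 22.1 and 17.9 CPM at 18 h and 5.73 and 13.1 CPM at 22 h, down by 0.88 (SE 0.30, adjusted p 0.0439) in 4 of 5. In all 3 chains only the 22 h libraries lay well below the fed range.

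Col8a1, a network chain of vessel walls, differed in this. It was 8.35, 9.93 and 12.1 CPM fed, 7.60, 4.86 and 5.78 CPM at 18 h and 6.69 and 3.23 CPM at 22 h, down by 0.91 (SE 0.31, adjusted p 0.0458), with all 5 late libraries below all fed ones. Col6a6, a low type VI chain, was 1.60, 1.63 and 5.18 CPM fed, 1.57, 2.75 and 2.14 CPM at 18 h and 0 and 0.557 CPM at 22 h, down by 1.60 (SE 0.58, adjusted p 0.0452) in 5 of 5, with overlap. Col1a1 (−1.40, SE 0.55, adjusted p 0.0823, 5 of 5 lower), Col1a2 (−0.88, 0.127), Col18a1 (−0.52, 0.0986) and Col3a1 (−0.41, 0.349) were not called. The same held for Col6a1 (−0.40), Col6a2 (−0.06) and Col6a3 (−0.48).

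**Figure D3:**
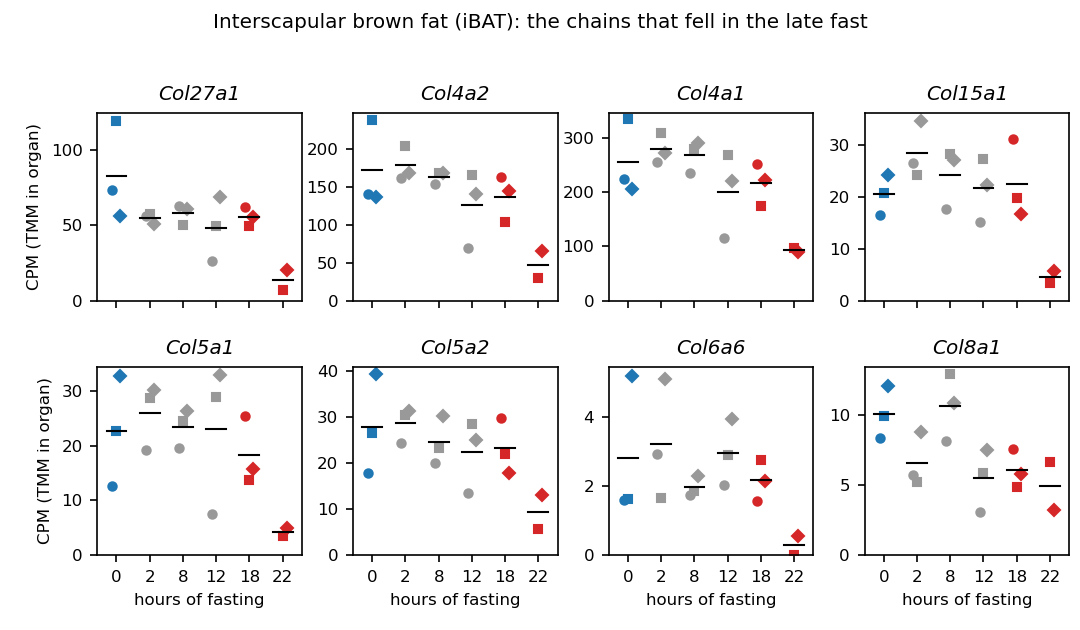
CPM (TMM within the organ) of the 8 chains that fell in brown fat by hours of fasting. Each symbol is 1 library (circle, square and diamond for replicates 1, 2 and 3; blue 0 h, grey 2 to 12 h, red 18 and 22 h) and the black line is the mean.

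The call set of brown fat rests on few libraries. At 22 h alone 15 chains were called and at 18 h alone 0. Leaving out a library left 1 chain without fed replicate 2, 3 without fed replicate 3, 3 without 22 h replicate 2 and 4 without 18 h replicate 2 or 3. With transcript length as offset 2 chains were called: the median log2 fold change of all genes was 0.40 in the shortest 25% and −0.52 in the longest 25%, where 22 of the 29 chains lie. The slope of log2 CPM (each gene less its organ mean) on log2 exon length averaged 0.061 in fed libraries, 0.004 at 18 h and −0.393 at 22 h. The length trend thus lay in the same 22 h libraries as most of the low values. By the lane in the library names, 18 h replicates 1 and 3 share lanes 8 and 5 with fed libraries, while 18 h replicate 2 and both 22 h libraries have lanes that hold no fed iBAT library. Whether length, lane or fasting gave the fall was not tested.

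Markers of vessel and fat cells moved in brown fat as well, and their part in the result was not tested. Of 7 endothelial markers 4 were lower, with sums of 1109, 1443 and 777 CPM fed, 803, 726 and 694 at 18 h and 501 and 555 at 22 h, Cdh5 most often the highest and none at 0. Of 7 adipocyte markers 3 were higher, with sums of 23731, 18477 and 19533 CPM fed, 25764, 26673 and 27914 at 18 h and 40965 and 37342 at 22 h, led by Fabp4. Of 6 brown adipocyte markers 2 were higher, with sums of 16757, 10833 and 9627 CPM fed, 11729, 11820 and 11503 at 18 h and 19995 and 14401 at 22 h, led by Ucp1. Of 7 smooth muscle cell and pericyte markers 2 were lower, but the sums were 1010.9, 761 and 857 CPM fed, 859.6, 899 and 881 at 18 h and 1127 and 1004 at 22 h, led by Rgs5. Fibroblast markers summed to 248, 271 and 337 CPM fed, 342, 310.3 and 259 at 18 h and 298 and 319 at 22 h.

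Some other basement membrane genes fell with the type IV chains of brown fat. In iBAT 11 of 74 tested matrix and processing genes were lower, where 13% of all genes were, and 3 were higher (20.9% of all genes were called in either direction), and 6 of the lower were among 14 laminins, nidogens and other basement membrane genes. Lama4, a laminin chain of vessels and adipocytes, was 93.6, 129 and 129 CPM fed and 26.1, 69.8 and 77.04 CPM late (lowest, median, highest), down by 1.15 (adjusted p 0.0021), with all late values below all fed ones. Lama5 (−1.58, adjusted p 0.00328) and Hspg2 (−1.54, adjusted p 0.00494) fell too. Serpinh1, the chaperone of procollagen, was 176, 158 and 395 CPM fed and 94.3, 130.6 and 155.6 CPM late, down by 0.91 (SE 0.27, adjusted p 0.0262) in 5 of 5. P4hb rose by 0.46 (adjusted p 0.0419) and P3h4, a prolyl hydroxylase family member, by 1.03 (adjusted p 0.00736). Loxl1 (−0.99), Mmp15 (−0.73) and Itga1 (−0.89) fell, and P4ha1 (−1.26, adjusted p 0.0944), Lox (−0.52), Mmp2 (0.17) and Sparc (0.42) were not called.

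**Figure D4:**
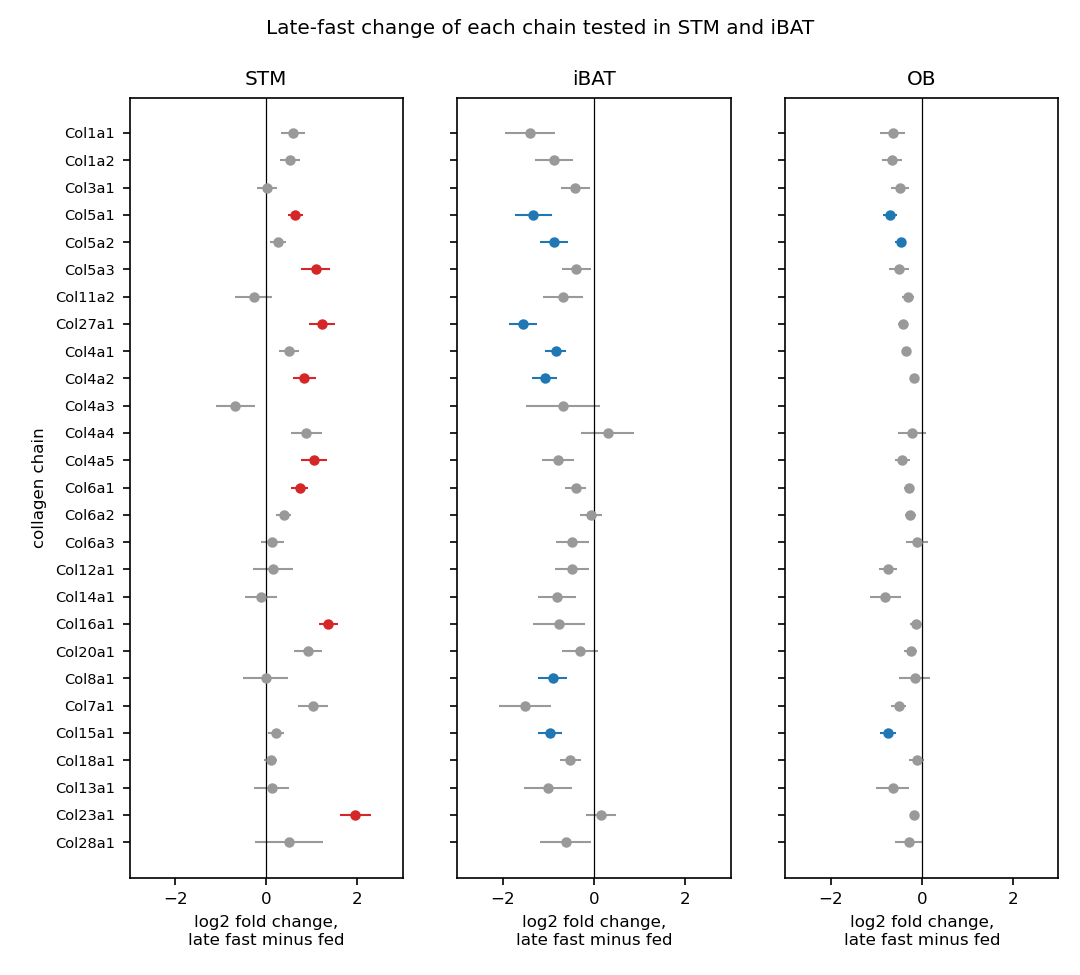
Log2 fold change of late fast against fed for 27 chains in stomach, brown fat and olfactory bulb. Points are edgeR estimates, bars are SE, and red marks chains that rose, blue those that fell and grey those not called.

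Whether stomach and brown fat differ in the late-fast change was tested as a difference of the 2 fold changes, chosen after the data were seen. The late-fast change was more positive in STM than in iBAT for 16 chains and for 11.5% of all genes. Of the 16, 13 were tested in both organs and 3 (Col25a1, Col4a6 and Col19a1) were below the count rule in iBAT. Largest among the 13 tested in both organs were Col27a1 (difference 2.78, adjusted p 1.96e-05), Col7a1 (2.50, 0.0308), Col16a1 (2.09, 0.000716), Col1a1 (1.99, 0.00143), Col5a1 (1.96, 0.00133) and Col4a2 (1.91, 5.89e-05). Without the 4 doubted libraries the count was 18. In a fit of these 2 organs alone the count was 16 too, and there it was 9 without fed STM replicate 3. Against OB the difference was called for 5 chains (1.77% of all genes): Col23a1 (2.13), Col16a1 (1.49), Col6a1 (1.03), Col27a1 (1.64) and Col25a1 (2.28). This count was 10 without the 4 doubted libraries and 20 in a fit of STM and OB alone. Within that fit, leaving out 1 library gave 8 (without fed STM replicate 3) to 22. The same mice gave both organs, which this test does not model.

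The olfactory bulb holds little connective tissue outside its vessels and covering membranes. In the olfactory bulb a few chains of fibrils and vessels were lower in the late fast, by small amounts. Of 39 chains 3 fell (1.17% of all genes did, and 1.95% were called in either direction), 0 rose and 36 fold changes were negative, with a median of −0.37 against −0.01. Positive fold changes made up 7.69% of the chains and 48.4% of all genes. DESeq2 called 9, and 21 had unadjusted p under 0.05 (22.8% of all genes did). Col5a1 was 22.5, 15.1 and 23.5 CPM fed and 9.71, 13.0 and 15.3 CPM late, down by 0.69 (SE 0.15, adjusted p 0.0316) in 6 of 6, with slight overlap. Col5a2 was 20.1, 14.1 and 14.4 CPM fed and 10.3, 11.9 and 13.0 CPM late, down by 0.47 (SE 0.12, adjusted p 0.0448). Col15a1 was 8.91, 6.07 and 5.53 CPM fed and 3.68, 3.95 and 5.30 CPM late, down by 0.74 (SE 0.18, adjusted p 0.0401). For Col5a2 and Col15a1 every late library was below every fed one.

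Basement membrane and type I and VI chains of the olfactory bulb had lower estimates without a call. Col4a1 was 41.5, 36.4 and 36.3 CPM fed and 22.8, 31.2 and 37.8 CPM late (−0.34, adjusted p 0.0521), and Col4a2 gave −0.18 (0.244). Col1a2 was 45.7, 28.6 and 60.2 CPM fed and 18.2, 27.7 and 38.8 CPM late (−0.65, adjusted p 0.0978). Col1a1 (−0.64, adjusted p 0.191), Col3a1 (−0.48, 0.144) and Col6a1 (−0.28, 0.141) followed, with Col6a2 (−0.25), Col18a1 (−0.12) and Col6a3 (−0.11). Around them Fn1 (−0.40), Itga1 (−0.58), Lama3 (−0.59), Nid2 (−0.59) and Agrn (−0.29) fell among 76 tested matrix and processing genes, where 1.17% of all genes fell, and none rose. Of 7 endothelial markers 3 were lower, with sums of 93.2, 77.3 and 83.5 CPM fed, 94.9, 63.8 and 61.7 at 18 h and 64.4, 60.1 and 59.8 at 22 h. Cldn5 was the highest of these in every library and none was at 0, and their part in the result was not tested.

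The olfactory bulb calls are fragile. Without any of fed replicate 1, 18 h replicate 1, 22 h replicate 1 or 22 h replicate 3 the count was 0, and it was 1 without 18 h replicate 3, 5 without fed replicate 2, 7 without fed replicate 3 and 8 without 18 h replicate 2. It was 0 at 22 h alone, 9 at 18 h alone and 0 with transcript length as offset. The median log2 fold change of all genes was 0.13 in the shortest 25% and −0.11 in the longest 25%, where 29 of the 39 chains lie. Fed libraries carry lane 3 and late ones lane 4 in the library names, and only the 8 h libraries hold both (replicate 3 lane 4). With lane as covariate 0 chains were called, with folds of −0.83 for Col5a1 (adjusted p 0.536), −0.47 for Col5a2 (0.564) and −0.89 for Col15a1 (0.536).

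Brain collagen lies mostly in vessels and meninges, and some chains are made by neurons. In the brain 3 of 40 chains were lower in the late fast (4.17% of all genes were, and 11.2% were called in either direction) and 0 higher. The median was −0.52 against −0.09, DESeq2 called 5, and 10 had unadjusted p under 0.05. Col11a1, a fibrillar chain also made by neurons, was 27.3, 19.1 and 17.6 CPM fed, 6.99 and 5.20 CPM at 18 h and 10.8, 15.6 and 10.6 CPM at 22 h. It fell by 1.31 (SE 0.34, adjusted p 0.0232), with 5 of 5 late libraries below every fed one. Col5a1 was 22.6, 29.001 and 32.7 CPM fed, 5.52 and 13.7 CPM at 18 h and 13.3, 10.5 and 18.6 CPM at 22 h, down by 1.25 (SE 0.38, adjusted p 0.0378) in 5 of 5 without overlap. Col28a1 was at 0.840, 0.301 and 1.26 CPM fed (2 to 12 counts) and at 0 counts in all 5 late libraries. Its fed mean of 0.800 CPM lies below the 0.985 CPM that 3 counts would be in the shallowest late library, so no fold is given (adjusted p 0.0305).

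Brain calls depended on which libraries were used. Without the doubted libraries, and with all libraries put back, the count was 0. Leaving out any of the 3 fed replicates or 22 h replicate 1 gave 0, 18 h replicate 2 or 22 h replicate 2 gave 1, 22 h replicate 3 gave 5 and 18 h replicate 3 gave 14, both with the 3 calls kept. The median log2 fold change of all genes was 0.40 in the shortest 25% and −0.42 in the longest 25%, where 30 of the 40 chains lie. With length offsets or lane as covariate the count was 0. With lane the folds were −1.31 for Col11a1 and −1.39 for Col5a1 (edgeR adjusted p 0.524 each). The numbers that open the library names also split the groups: all fed BRN libraries are of a series to which no late library used belongs. Both series occur at 2 h and 12 h. Fed against late is thus a contrast of series as well, and the series was in no fit. Whether length, lane, series or fasting gave the fall was not tested. The count was 0 at 22 h alone, and 1 at 18 h alone or with 0 h and 2 h as control. Of the other chains Col4a1 (38.1, 29.6 and 43.6 CPM fed; 12.1, 22.1 and 26.5 CPM late) had −0.86 (adjusted p 0.0622), and Col6a1 −0.54 (0.104). Estimates were −1.02 for Col15a1, −0.52 for Col4a2, −0.40 for Col6a2, 0.80 for Col3a1, 0.37 for Col18a1, 0.16 for Col1a2, 0.23 for Col6a3 and 0.00 for Col1a1, none called. Oligodendrocyte marker sums varied in the same libraries, 7195, 6716 and 5369.8 CPM fed, 16271 and 6300.5 at 18 h and 14925, 23455 and 7754 at 22 h, with 1 of 5 markers higher, Mbp most often the highest, and their part in the result was not tested. None of 6 neuron markers was called, with sums of 4308, 3862 and 3669 CPM fed, 1981 and 3534 at 18 h and 3155, 2667 and 3946 at 22 h, Snap25 the highest and none at 0, and their part was not tested either. Of 76 tested matrix and processing genes 3 were higher and 2 lower, where 11.2% of all genes were called and 4.17% were lower. Sparc, a collagen chaperone outside the cell, was 382, 345 and 327 CPM fed and 408, 639 and 857 CPM late, up by 0.74 (adjusted p 0.0217) in 5 of 5. Ppib (0.64, 0.0373) and Ctsk (1.65, 0.0244) rose too, and Adamts3 (−2.28, 0.0447) and Agrn (−0.75, 0.0103) fell.

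Collagen of the healthy liver comes from stellate cells, portal fibroblasts and, for type XVIII, hepatocytes. In the fasted liver 1 chain was called. Of 23 chains tested in LIV 1 rose (5.19% of all genes did, and 10.6% were called in either direction) and 0 fell, with a median of 0.00 against 0.01. DESeq2 called 1, and 3 had unadjusted p under 0.05 (26.7% of all genes did). Col5a3 was 108, 110.3 and 97.0 CPM fed and 143.2, 179 and 271 CPM late, up by 0.84 (SE 0.18, adjusted p 0.0087), with 6 of 6 late libraries above every fed one. It was 162.04, 104.3 and 143.3 CPM at 2 h, 241, 262 and 190.2 CPM at 8 h and 160.4, 223 and 222 CPM at 12 h. Col18a1, the most abundant chain, was not called: it was 649, 649 and 619 CPM fed and 642, 668 and 769 CPM late (0.10, adjusted p 0.590).

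Other liver chains were not called. Estimates with adjusted p were 0.51 for Col6a1 (0.177), 0.83 for Col7a1 (0.186) and 0.29 for Col1a2 (0.202). Col4a1 (−0.24), Col4a2 (−0.29), Col15a1 (−0.71), Col3a1 (0.15), Col5a1 (0.13), Col6a3 (−0.30), Col1a1 (−0.09) and Col6a2 (−0.02) were further from a call. Of 66 tested matrix and processing genes 2 were higher and 3 lower, where 10.6% of all genes were called. P4hb was 1403, 1426 and 1684 CPM fed and 749, 1025 and 1212 CPM late, down by 0.59 (adjusted p 0.00175) without overlap. Fn1 fell by 0.49 (0.0217) and Ppib by 0.43 (0.0341), while Tnxb rose by 0.54 (0.0172) and Lamc3 by 1.26 (0.0482). Of 6 stellate cell markers 2 were higher, with sums of 263, 252 and 234.1 CPM fed and 317 to 376 CPM late and Ecm1 the highest, and their part in the result was not tested. Fed libraries carry lane 1 and late ones lane 2 in the library names, and only the 8 h libraries hold both. With lane as covariate Col5a3 was 1.25 (adjusted p 0.12) and 0 chains were called, and with 0 h and 2 h as control 3.

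White adipocytes are surrounded by type IV and type VI collagen that bears their swelling and shrinking. In perigonadal fat most estimates were negative, but none passed the test. Of 34 chains 0 were called by edgeR, in an organ where 1 of 16412 genes was (0.00609%). DESeq2 called 5 (Col4a1, Col4a2, Col5a1, Col6a2 and Col15a1), and 16 chains had unadjusted p under 0.05, 15 of them lower (21.7% of all genes had such a p in either direction). The median was −0.61 against 0.05. By transcript length, the median of all genes was 0.40 in the shortest 25% and −0.17 in the longest 25%, where 27 of the 34 chains lie. Col4a2 was 420.3, 376 and 409 CPM fed and 90.8, 177 and 234.1 CPM late (−1.22, SE 0.27, adjusted p 0.0763), with 6 of 6 late libraries below every fed one. Col15a1 was 328, 327 and 425 CPM fed and 79.98, 142.6 and 240.0 CPM late (−1.27, SE 0.31, adjusted p 0.0834), again without overlap.

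Col5a1 of this depot was 129, 105.4 and 131.3 CPM fed and 33.4, 61.7 and 72.6 CPM late (−1.13, SE 0.27, adjusted p 0.0803, 6 of 6 lower). Col4a1 was 744, 663 and 648 CPM fed and 182.95, 383 and 437 CPM late (−0.94, SE 0.25, adjusted p 0.0903, 6 of 6 lower). Below these came Col6a2 (−0.90, adjusted p 0.0902), Col6a3 (−0.63, 0.146), Col6a1 (−0.59, 0.153), Col1a2 (−0.66, 0.193), Col18a1 (−0.39, 0.213), Col3a1 (−0.69, 0.217) and Col1a1 (−0.57, 0.252). Without 22 h replicate 2, the only doubted library of this depot, 1 chain was called, Col4a2 (−1.23), among 247 genes. Without the 3 tract libraries, a choice made after the data were seen, 3 of 29 chains and 173 genes were called. Adipocyte markers summed to 5053 CPM in 22 h replicate 2 and to 27912 to 72588 CPM in the other libraries. Of 7 endothelial cell markers none was called, with a median estimate of −0.75 and sums of 466, 451 and 580 CPM fed, 365, 469 and 197 at 18 h and 276, 122.55 and 280 at 22 h, Pecam1 most often the highest and none at 0, and their part in the result was not tested. Fed libraries carry lane 5 and late ones lane 6 in the library names, and only the 12 h libraries hold both. With lane as covariate 0 chains were called, and Col4a2 was −0.94 (adjusted p 0.69).

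Cerebellum, brainstem and subcutaneous fat showed no called chain. In CBL 0 of 37 chains were called by edgeR (0.344% of all genes were) and 1 by DESeq2. Unadjusted edgeR p was under 0.05 for 8 chains and for 15.0% of all genes. These 8 were led by Col7a1 (−1.001, adjusted p 0.131), Col27a1 (−0.62, 0.145) and Col8a1 (−1.04, 0.186). At 22 h alone 3 were called. In BST 0 of 40 were called by edgeR (0.0596% of all genes), 0 by DESeq2 and 3 had unadjusted p under 0.05 (9.87% of all genes did), with a median of 0.07 against 0.00. In psWAT 0 of 36 were called by edgeR (0% of all genes), 0 by DESeq2, and 1 had unadjusted p under 0.05 (5.19% of all genes did), Col12a1 (−0.89, edgeR p 0.0399, adjusted p 0.936). The psWAT libraries vary widely in composition, with adipocyte marker sums of 498 to 33872 CPM and lymphocyte sums of 185 to 2323 CPM. Fn1 (0.56) and Lamc1 (0.47) rose in CBL (adjusted p 0.0386 each), and of the same 6 lists no gene was called in BST, pgWAT or psWAT.

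Further processing genes named beforehand were not called in the other organs. Serpinh1 was −0.36 in OB, 0.33 in BRN, −0.25 in CBL, −0.34 in BST, −0.26 in LIV, −0.76 in pgWAT and −1.06 in psWAT, and P4ha1 was −0.21, −0.11, −0.20, −0.35, −0.24, −0.41 and −0.37 in the same order. Mmp2 was −0.39, −0.22, −0.25, 0.03, −0.36, −0.47 and 0.13. P4hb was 0.10 in OB, 0.46 in BRN, 0.24 in CBL, 0.06 in BST, 0.29 in pgWAT and −0.06 in psWAT. Sparc was 0.16 in OB, 0.24 in CBL, 0.01 in BST, −0.05 in LIV, −0.32 in pgWAT and −0.25 in psWAT. Lox was not tested in BRN and LIV, being below the rule, and was 0.01 in OB, −0.28 in CBL, −0.10 in BST, −0.09 in pgWAT and −0.55 in psWAT.

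The 4 sequences shown belong to 2 head-to-head pairs of type IV collagen genes, shown because both members of each were called in 1 organ. Col4a1 and Col4a2, which both fell in iBAT while only Col4a2 was called in STM, start 21 bases apart on opposite strands (Col4a1 chr8:11312777-11313076, minus; Col4a2 chr8:11312555-11312854, plus, GRCm38.p6). Col4a5 and Col4a6, which both rose in STM, start 1343 bases apart (Col4a5 chrX:141475169-141475468, plus; Col4a6 chrX:141474027-141474326, minus). The windows run from 250 bases before to 50 after a RefSeq start, 5′ to 3′ on the gene's strand, and capitals mark the GC box GGGCGG (on the other strand CCGCCC) and the CCAAT box (on the other strand ATTGG). Col4a3 and Col4a4, another such pair, were not called in any organ and had estimates of opposite sign in STM (−0.67 and 0.88) and iBAT (−0.69 and 0.30), and of the same sign in BST (0.78 and 0.72), CBL (−0.22 and −0.38) and pgWAT (−0.64 and −0.58). A match describes the sequence only.
Col4a1: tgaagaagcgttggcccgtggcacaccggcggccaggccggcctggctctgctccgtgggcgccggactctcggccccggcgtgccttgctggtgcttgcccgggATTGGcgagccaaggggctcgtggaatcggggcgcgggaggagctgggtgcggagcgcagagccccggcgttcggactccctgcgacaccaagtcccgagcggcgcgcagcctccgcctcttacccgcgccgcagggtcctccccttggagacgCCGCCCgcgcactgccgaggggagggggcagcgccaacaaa
Col4a2: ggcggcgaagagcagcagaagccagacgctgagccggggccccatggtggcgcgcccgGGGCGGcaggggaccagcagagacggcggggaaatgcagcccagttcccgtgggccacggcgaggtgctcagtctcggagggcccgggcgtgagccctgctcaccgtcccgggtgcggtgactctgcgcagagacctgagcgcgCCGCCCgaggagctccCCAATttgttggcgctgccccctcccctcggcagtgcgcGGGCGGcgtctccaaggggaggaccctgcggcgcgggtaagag
Col4a5: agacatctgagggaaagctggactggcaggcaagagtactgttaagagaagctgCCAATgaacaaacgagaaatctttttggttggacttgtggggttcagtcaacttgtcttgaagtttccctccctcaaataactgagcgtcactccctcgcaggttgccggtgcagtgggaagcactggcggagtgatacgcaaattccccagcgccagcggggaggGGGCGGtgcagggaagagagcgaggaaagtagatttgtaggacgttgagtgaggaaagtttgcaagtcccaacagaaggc
Col4a6: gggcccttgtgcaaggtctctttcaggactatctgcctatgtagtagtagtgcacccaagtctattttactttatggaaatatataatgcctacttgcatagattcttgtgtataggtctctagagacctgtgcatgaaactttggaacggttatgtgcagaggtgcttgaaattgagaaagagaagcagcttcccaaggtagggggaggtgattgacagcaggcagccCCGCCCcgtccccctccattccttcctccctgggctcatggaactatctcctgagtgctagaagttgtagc

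GC content of these windows was 74% for Col4a1, 73.7% for Col4a2, 52.7% for Col4a5 and 48.3% for Col4a6. A GC box match stood in 23 of 38 windows of 35 chains (60.5%), against 35.7% of 32851 windows of all genes. CCAAT was found in 13 (34.2%, against 37.4%) and TATAAA (on the other strand TTTATA) in 5 (13.2%, against 13.6%). No window was matched for 9 chains.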

How the data were processed

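Gene-level counts of all libraries, deposited by the authors in 1 table, were used; the authors mapped reads with TopHat2 2.1.1 to GRCm38.p5 and made the counts with HTSeq 0.9.1 on Gencode M16. Each column's library name stands in the description of its sample, and 0 columns stayed without a match. Depth was 3045845 to 27801717 counts per sample (median 8735554), so that a level of 1 CPM rests on about 3 counts in the shallowest library. Tests used edgeR 4.0.16 (TMM, robust quasi-likelihood, Benjamini-Hochberg) in R 4.3.3 with limma 3.58.1, and DESeq2 1.42.0 as an alternative; tables and figures used Python 3.11.15, pandas 2.3.3 and matplotlib 3.10.9. The code was tested on simulated data. Within an organ, genes with the CPM of 10 counts at median depth in 3 libraries were tested, all 6 times in the model. Lengths are merged exons of Gencode M21. Promoter windows come from RefSeq starts on GRCm38.p6.

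Members and lists were chosen with earlier results of these data known. Named genes are, for levels, the 5 chains highest per kb in each organ and each chain's highest organ. For fasting they are every called chain or the 6 with smallest p, and always Col1a1, Col1a2, Col3a1, Col4a1, Col4a2, Col5a1, Col6a1, Col6a2, Col6a3, Col15a1 and Col18a1. For organ contrasts they are the 6 called chains with largest change. For the 6 lists of collagen processing and matrix genes (86 genes) they are the 3 called with smallest p of each list in an organ, plus Serpinh1, P4ha1, P4hb, Lox, Mmp2 and Sparc; further genes were chosen after values were seen.

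Replicate numbers at different times name different mice per the labels, so times were not paired. Across organs the number and time were taken to name the same mouse, which the labels do not state (608 pairs, mean r 0.0171, against −0.00842 for other pairs). No library duplicated another. Alternatives were DESeq2, RLE size factors, no filter, all libraries put back, the 4 doubted libraries left out, length offsets, a replicate block, lane as covariate, other control and late groups, a fold threshold, and each library left out in turn. The series' other readouts were not used here.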

Additional observations from a re-analysis of the deposited data

Results flagged for a closer look

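What flagged these results is a difference between organs: the late-against-fed change was tested as different in the stomach and another organ, in a comparison chosen after the data were seen. For STM minus iBAT the difference in log2 units was 2.78 for Col27a1, 1.91 for Col4a2, 2.09 for Col16a1, 1.96 for Col5a1, 1.99 for Col1a1, 1.14 for Col6a1, 1.35 for Col4a1, 1.40 for Col1a2, 1.79 for Col23a1, 1.83 for Col4a5, 2.50 for Col7a1, 1.12 for Col5a2 and 1.47 for Col5a3. For STM minus OB it was 2.13 for Col23a1, 1.49 for Col16a1, 1.03 for Col6a1, 1.64 for Col27a1 and 2.28 for Col25a1. In STM and OB lane and fasting nearly coincide, with both lanes only at 8 h, and in iBAT the 22 h libraries carry most of the change. Which of these lies behind the difference was not tested.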

How the results depend on the processing

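Counts of called chains in the late fast moved by over 1.5 times as follows, and the cause was not tested. With DESeq2 they were 15 in STM, 9 in OB, 5 each in pgWAT and BRN and 1 in CBL. Without the filter on low counts they were 14 (OB), 5 (BRN), 2 (LIV) and 1 (CBL). With all libraries put back they were 0 in BRN and 5 in iBAT, and without the 4 doubted libraries 0 in BRN and 1 in pgWAT. Transcript length offsets gave 0 in OB, 0 in BRN and 2 in iBAT, and the replicate block 5 in OB. With 0 h and 2 h as control they were 6 in OB, 1 in BRN, 14 in STM and 3 in LIV; at 18 h alone 9 in OB, 1 in BRN and 0 in iBAT; at 22 h alone 0 in OB, 0 in BRN, 3 in CBL, 1 in STM and 15 in iBAT. Lane as covariate gave 0 in OB, BRN, STM and LIV and could not be fitted in iBAT. An added limit of 1 on absolute log2 fold change left 0 in OB, 0 in LIV and 4 in iBAT. Without the 3 tract libraries pgWAT had 3. Of the values of called chains, Col15a1 in iBAT at 18 h alone was reversed, 0.144. Of the estimates called neither in the main fit nor under the alternative, 45 changed sign under at least 1 setting, among them Col15a1 in LIV (−0.71, with lane 0.80) and Col6a3 in STM (0.14, with lane −0.45). The difference STM minus OB gave 10 without the doubted libraries and 20 in the fit of 2 organs. Leaving out 1 library gave 0 to 8 in OB, 0 to 14 in BRN, 2 to 14 in STM, 1 to 11 in iBAT and 0 to 1 in pgWAT. In the fits of 2 organs, which gave 16 for STM minus iBAT and 20 for STM minus OB with all their libraries, leaving out 1 gave 9 to 20 and 8 to 22. Of the counts under alternatives 39 moved and 120 kept within 1.5 times, among them all 7 organ contrasts under every setting, and the replicate block changed no other call count by more. Same-numbered libraries of an organ share only a number: their mean correlation lay between −0.0779 and 0.0321 in 8 organs and was 0.159 in iBAT, with 21 of 40 pairs over 0.1. Of gene values with a library left out 873 kept their side of the threshold, 56 lost and 14 gained a call. Depth limits chains near 1 CPM, 3 to 28 counts per library.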
